A study of Mus musculus with 90 samples.

Results

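Untreated mouse macrophages carrying an altered human IRF8 construct were compared with untreated macrophages labelled mock. The 6 libraries were taken by title: 2 of hIRF8G388S, 2 of hIRF8379-389 and 2 of mock, out of 90 libraries in the study. All 6 share 1 column-name prefix in the authors' table. Per the labels' protocol, bone marrow macrophages of Irf8-/- mice were transduced with human IRF8, either wild type (hIRF8WT), hIRF8G388S or hIRF8379-389, so every construct group carries the Irf8-/- genotype of its host cells. The construct names point to an amino acid change and to a stretch of positions, and the labels say no more of either, or of what mock cells received. The age of the mice and the promoter that drives the constructs are not given in the sources used here, and per the series' design text mice of both sexes were used. The other 84 libraries were Irf8-/- (KO) and Irf8+/+ (WT) cells with M-CSF and RANKL, the same constructs and mock on the way to osteoclasts, and constructs and mock with interferon-gamma (IFNg) alone or with lipopolysaccharide (LPS) for 1, 4 or 8 h. Untreated hIRF8WT macrophages have 1 library of usual depth (46.8 M alignments) and 1 of 0.218 M, so that group is only set beside the results.

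IRF8 is a transcription factor of the interferon regulatory factor family that macrophages and dendritic cells need in order to mature. It binds DNA weakly alone and mostly acts with a partner such as PU.1, BATF3 or another family member, at composite sites that join a GGAA core to a GAA element or at interferon-stimulated response elements. In macrophages it is known for genes of antigen presentation, pathogen sensing and the interferon response, and for holding back granulocyte genes and osteoclast formation.

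The 6 libraries hold 31.2 to 55.1 M alignments. Levels are the deposited RPKM, reads scaled to the length of the gene and to the size of the library. Differences are log2 fold changes of RPKM + 1 from limma, construct minus mock, with their standard error, and a gene is said to have changed where its p-value, adjusted over 10569 tested genes by the method of Benjamini and Hochberg, was under 0.05. Adding 1 understates the change of genes near or below 1 RPKM. The spread was estimated over 39 macrophage libraries of 20 groups. The p-values measure the spread between these libraries, since the labels do not say whether replicates are separate animals or cultures. Of the 39 libraries 32 were stimulated, and a fit to the 6 compared libraries alone has 3 residual degrees of freedom in place of 19. The p-values so rest mostly on stimulated groups, whose replicates differed less than those of untreated mock, and can overstate the precision of the untreated comparison.

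All 10 macrophage markers were present, among them the M-CSF receptor Csf1r at 949 and 989 RPKM with hIRF8G388S, 843 and 896 with hIRF8379-389, and 930.1 and 943 with mock (log2 fold change -0.03 ± 0.08, adjusted p = 0.756), and the surface receptor Adgre1, known as F4/80, at 365 and 390.1 RPKM with hIRF8G388S, 405 and 405 with hIRF8379-389, and 403 and 430.4 with mock (log2 fold change -0.09 ± 0.06). Of the 10, 3 rose (Itgam, Fcgr3 and Ptprc) and 4 fell (Lyz2, Cd68, Cd14 and Tyrobp), beside 28.8% and 27.5% of all genes tested. Their sum, most of it Lyz2, was 17488 and 16863 RPKM with hIRF8G388S, 13633 and 17723 with hIRF8379-389 and 25598 and 26159 with mock. The lineage-defining markers of T, NK and mast cells Cd3e, Ncr1 and Cpa3 were listed at 0 in all 6 libraries. Cd4, the only member of the T and NK list that was tested, rose, with 8.15 and 10.6 RPKM with hIRF8G388S, 10.2 and 10.3 with hIRF8379-389, and 4.26 and 3.42 with mock (log2 fold change 1.16). The dendritic cell markers Flt3, Zbtb46 and Xcr1 did not pass 0.2 RPKM in any. Markers of neutrophils and their precursors summed to 610.0 and 588 RPKM with hIRF8G388S, 757 and 648 with hIRF8379-389 and 1280.3 and 1224 with mock. In bulk RNA, fewer cells of a type and less RNA per cell cannot be told apart.

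Some libraries stand apart. Mock replicate 2 is high in stromal genes, whose 14 markers sum to 24.4 and 31.4 RPKM with hIRF8G388S, 24.5 and 26.6 with hIRF8379-389 and 35.8 and 145 with mock. All 5 that were tested fell with the constructs, beside 27.5% of all genes, and 3 of them in a fit to the 6 libraries alone, beside 15.3%. Their median log2 level relative to the mock mean was -1.40 and -0.94 with hIRF8G388S, -1.47 and -1.32 with hIRF8379-389 and -0.91 and 0.91 with mock. Mock replicate 1 so lay close to the higher hIRF8G388S library. The replicates of mock also differ more from each other than those of the constructs, with an SD over all tested genes of 0.151 with hIRF8G388S, 0.176 with hIRF8379-389 and 0.285 with mock on the log2 scale, against 0.0697 to 0.181 in the stimulated groups. hIRF8379-389 replicate 1 is high in interferon-stimulated genes. Xist, the RNA of the inactive X chromosome, stood at 33.7 and 38.95 RPKM with hIRF8G388S, 36.2 and 34.4 with hIRF8379-389, and 16.05 and 17.5 with mock. The Y-linked genes Ddx3y, Kdm5d, Eif2s3y and Uty were listed at 0 in all 6 libraries, so the mice of both sexes named for the series do not show in this comparison. The deviation of a library from the gene means also follows gene length, with a Spearman correlation of 0.160 and 0.434 for hIRF8G388S, 0.236 and 0.166 for hIRF8379-389, and -0.269 and -0.335 for mock, over 98.2% of the tested genes. Their part in the results was not tested beyond the values given without a library or with the length trend subtracted.

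Irf8 itself (chr8:120736358-120756694, plus strand in mm10) was counted at 59.5 and 62.99 RPKM with hIRF8G388S, 60.02 and 59.6 with hIRF8379-389, and 77.5 and 68.5 with mock. All 4 construct libraries lay below both mock libraries (log2 fold change -0.26 ± 0.07, adjusted p = 0.00231), and the fall did not pass without mock replicate 1 (log2 fold change -0.18, adjusted p = 0.0945), with the shallow library added as the 40th (adjusted p = 0.217) or with libraries weighted by condition (adjusted p = 0.0722). The value counts every read on the mouse gene, so what remains of the disrupted allele and any human construct reads aligned there cannot be told apart, and it checks no label.

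Set against mock, 3047 genes rose and 2906 fell with the constructs together, which is 28.8% and 27.5% of all genes tested, with a median log2 fold change of 0.01 over all of them. Changes of 1 or more on the log2 scale were fewer, at 327 rises and 160 falls. In 2500 of the rises and 2465 of the falls the 4 construct libraries did not overlap the 2 mock libraries, which over all 10569 genes, called or not, was so for 2752 above and 2747 below mock. A fit to the 6 libraries alone called 1574 rises and 1615 falls (14.9% and 15.3%), of which 1572 and 1608 were called by both fits, and it held 311 rises and 146 falls of 1 or more on the log2 scale. With hIRF8G388S alone 2603 genes rose and 2432 fell (24.6% and 23%), and with hIRF8379-389 alone 2769 rose and 2619 fell (26.2% and 24.8%). The counts of both constructs use the same mock libraries.

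The deeper hIRF8WT library, which was not used in the contrasts, was set beside the genes that changed by 1 or more. For 310 of the 327 rises it lay above both mock libraries, and for 256 it lay nearer to the construct mean than to the mock mean, at a median of 69.0% of the way from mock to the constructs. For 142 of the 160 falls it lay below both mock libraries, and for 127 nearer to the constructs, at a median of 67.4% of the way. For 87 of the rises and 37 of the falls it lay within the range of the 4 construct libraries. The genes were chosen for their difference from these same mock libraries, so a place beyond mock and short of the construct mean is in part built in. The same shares over all tested genes were not computed. These are values of 1 library and carry no test.

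The steepest rises were in MHC class II, the molecules that show peptides to CD4 T cells. H2-Aa, the alpha chain of I-A (chr17:34282744-34287823, minus strand), stood at 1058 and 1014 RPKM with hIRF8G388S, 1003 and 1469 with hIRF8379-389, and 44.6 and 36.8 with mock. The groups lay far apart, and hIRF8379-389 replicate 2 was the highest library (log2 fold change 4.76 ± 0.15, adjusted p = 2.02e-18). Its partner chain H2-Ab1 (chr17:34257689-34269419, plus strand) had 1251 and 1122 RPKM with hIRF8G388S, 1239.6 and 1557 with hIRF8379-389, and 69.7 and 39.1 with mock (log2 fold change 4.59 ± 0.18, adjusted p = 2.4e-16). H2-Eb1, the beta chain of I-E, had 579.6 and 549 RPKM with hIRF8G388S, 602 and 784 with hIRF8379-389, and 31.7 and 20.1 with mock (log2 fold change 4.57 ± 0.16, adjusted p = 2.94e-17). Cd74, the invariant chain that guides class II molecules to the endosome, had 3053 and 2760.2 RPKM with hIRF8G388S, 2619.6 and 3736 with hIRF8379-389, and 137 and 91.1 with mock (log2 fold change 4.74 ± 0.15, adjusted p = 2.69e-18). Ciita, the transactivator that class II genes depend on (chr16:10480059-10528418, plus strand), had 16.6 and 19.4 RPKM with hIRF8G388S, 15.8 and 18.5 with hIRF8379-389, and 0.163 and 0.0981 with mock, where it was close to absent (log2 fold change 4.04 ± 0.12, adjusted p = 1.41e-18). With 0.1 added in place of 1, the log2 fold change of Ciita was 6.27.

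Of 11 tested members of the class II presentation list, 10 rose and 0 fell, beside 28.8% and 27.5% of all genes, and their median log2 fold change was 2.39. In the fit to 6 libraries 10 rises were called. The list's median relative to the mock mean was 2.45 and 2.26 in the hIRF8G388S libraries, 2.32 and 2.62 in the hIRF8379-389 libraries and 0.07 and -0.07 in the mock libraries. The exception was Ifi30, a thiol reductase that unfolds antigens in the endosome, at 43.1 and 37.1 RPKM with hIRF8G388S, 40.3 and 44.7 with hIRF8379-389, and 43.7 and 52.4 with mock (log2 fold change -0.21 ± 0.12, adjusted p = 0.129). No member of this list was called between the constructs, where the median difference, hIRF8G388S minus hIRF8379-389, was -0.23.

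**Figure D1:**
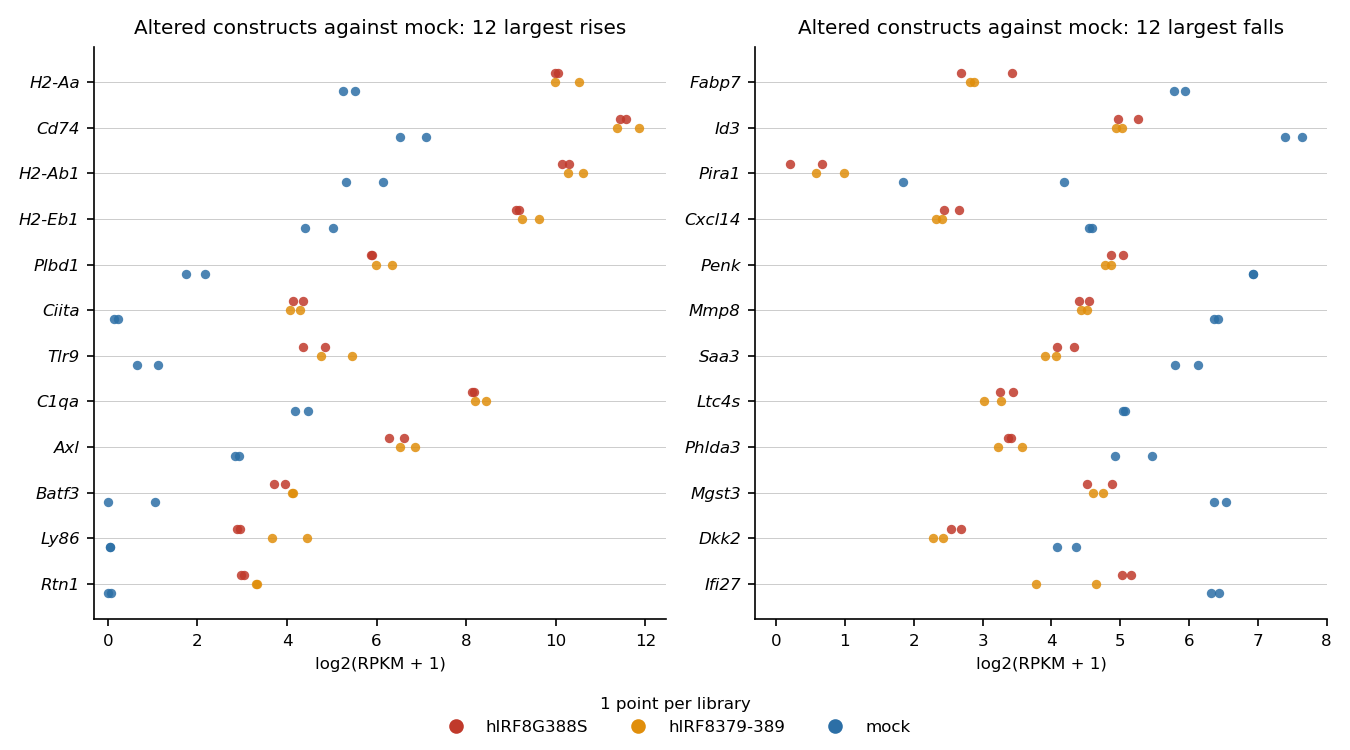
Level of the 12 genes with the largest rises (left) and the 12 with the largest falls (right) in each untreated library, as log2(RPKM + 1), 1 point per library, for hIRF8G388S, hIRF8379-389 and mock. H2-Aa stands at 1003 to 1469 RPKM in the 4 construct libraries and at 36.8 and 44.6 RPKM with mock. The 24 genes were chosen among those whose construct and mock libraries do not overlap.

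Complement genes and Fc receptors rose in part. C1qa, C1qb and C1qc encode the chains of C1q, the first component of the classical complement pathway, and lie side by side on chromosome 4. C1qa (chr4:136895917-136898803, minus strand) had 287 and 281 RPKM with hIRF8G388S, 290.1 and 346 with hIRF8379-389, and 21.2 and 17.2 with mock (log2 fold change 3.91 ± 0.15, adjusted p = 1.32e-16). C1qb stood at 1449 and 1366 RPKM with hIRF8G388S, 1575 and 1644 with hIRF8379-389, and 204 and 162 with mock, and C1qc showed the same separation (log2 fold changes 3.04 ± 0.14 and 2.66 ± 0.13). Of 13 complement genes and receptors tested, 7 rose and 2 fell, beside 28.8% and 27.5% of all genes, with a median of 0.41. Itgax, the CD11c integrin chain, had 29.03 and 27.3 RPKM with hIRF8G388S, 15.2 and 19.8 with hIRF8379-389, and 12.1 and 11.96 with mock (log2 fold change 0.83 ± 0.11, adjusted p = 1.19e-06).

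Of 6 Fc receptor genes, 4 rose and none fell, beside 28.8% and 27.5% of all genes. Fcgr1, the high-affinity receptor for IgG, had 56.2 and 55.5 RPKM with hIRF8G388S, 179 and 85.99 with hIRF8379-389, and 10.1 and 8.45 with mock (log2 fold change 3.04 ± 0.15, adjusted p = 2.08e-14). Fcgr4, another activating receptor, had 106 and 97.1 RPKM with hIRF8G388S, 219 and 152 with hIRF8379-389, and 34.6 and 41.7 with mock (log2 fold change 1.81 ± 0.12, adjusted p = 1.2e-11). In both, hIRF8379-389 replicate 1 was the highest library. The inhibitory receptor Fcgr2b rose as well (log2 fold change 1.14 ± 0.15), as did Fcgr3 (0.48 ± 0.13), which did not pass without mock replicate 1 (0.41, adjusted p = 0.0548) or with libraries weighted by condition (adjusted p = 0.07). The shared signalling chain Fcer1g stood at 1166 and 1100.3 RPKM with hIRF8G388S, 1167 and 1281 with hIRF8379-389, and 1201 and 1234 with mock (log2 fold change -0.05 ± 0.09, adjusted p = 0.658, and 0.21, adjusted p = 0.00787, with the gene length trend subtracted), and the neonatal Fc receptor Fcgrt at 248 and 232 RPKM with hIRF8G388S, 206 and 251 with hIRF8379-389, and 232 and 216 with mock (log2 fold change 0.06 ± 0.13, adjusted p = 0.687).

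Among sensors of microbes, Tlr9, the endosomal receptor of unmethylated CpG DNA, had 19.5 and 27.7 RPKM with hIRF8G388S, 42.9 and 26.2 with hIRF8379-389, and 1.18 and 0.578 with mock (log2 fold change 3.96 ± 0.22, adjusted p = 1.49e-13). Ly86, also called MD-1, is the partner of the surface receptor Cd180. It had 6.37 and 6.69 RPKM with hIRF8G388S, 20.7 and 11.7 with hIRF8379-389, and 0.04 and 0.0347 with mock, where it was nearly silent (log2 fold change 3.43 ± 0.15, adjusted p = 8.32e-16). Both hIRF8379-389 libraries lay above both hIRF8G388S libraries. With 0.1 added in place of 1, the rise of Ly86 over mock was 6.21 on the log2 scale. Cd180 itself rose by 0.88 ± 0.13, and Tlr7, the receptor of single-stranded RNA, by 1.46 ± 0.10. Of 18 genes of the Toll-like receptor list, 12 rose and 3 fell, beside 28.8% and 27.5% of all genes, with a median of 0.34. Tlr13, a receptor of bacterial ribosomal RNA, had 65.1 and 75.6 RPKM with hIRF8G388S, 91.2 and 75.5 with hIRF8379-389, and 65.3 and 64.8 with mock and did not pass (adjusted p = 0.103), except without hIRF8379-389 replicate 2 (log2 fold change 0.30, adjusted p = 0.0483).

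The other leading rises have varied roles. Plbd1, a lysosomal phospholipase B-like protein, had 57.4 and 58.5 RPKM with hIRF8G388S, 61.99 and 80.2 with hIRF8379-389, and 3.496 and 2.33 with mock (log2 fold change 4.07 ± 0.11, adjusted p = 3.88e-19). Axl, a receptor tyrosine kinase for the uptake of dying cells, had 76.6 and 96.9 RPKM with hIRF8G388S, 115 and 91.1 with hIRF8379-389, and 6.198 and 6.63 with mock (log2 fold change 3.68 ± 0.13, adjusted p = 3.76e-17). Batf3, an AP-1 factor that pairs with IRF8 in dendritic cells, had 14.5 and 11.98 RPKM with hIRF8G388S, 16.5 and 16.3 with hIRF8379-389, and 0 and 1.07 with mock, listed at 0 in the first of them (log2 fold change 3.45 ± 0.17, adjusted p = 2.31e-14). Clec9a, a receptor for dead cells that is typical of cross-presenting dendritic cells, had 4.55 and 4.26 RPKM with hIRF8G388S, 10.6 and 7.32 with hIRF8379-389, and 0.0121 and 0.0315 with mock (log2 fold change 2.83 ± 0.09, adjusted p = 6.22e-18). The 12 markers of conventional dendritic cells, Clec9a and Batf3 among them, summed to 93.5 and 95.9 RPKM with hIRF8G388S, 112 and 107 with hIRF8379-389 and 75.9 and 68.2 with mock. Most of that sum was Cadm1, at 50.5 and 53.7, 60.5 and 62.0, and 51.2 and 46.7 RPKM in the same order. Of 6 tested 5 rose and 1 fell, beside 28.8% and 27.5% of all genes, and 4 and 1 in the fit to 6 libraries, beside 14.9% and 15.3%. The fall was Cd24a, with 5.30 and 5.06 RPKM with hIRF8G388S, 5.17 and 5.65 with hIRF8379-389, and 11.7 and 8.57 with mock. Flt3, Zbtb46 and Xcr1 were near 0 in all 6 libraries, as given above. Rtn1, a protein of the endoplasmic reticulum, had 6.89 and 7.17 RPKM with hIRF8G388S, 8.98 and 8.85 with hIRF8379-389, and 0.0458 and 0 with mock (log2 fold change 3.12 ± 0.08, adjusted p = 3.48e-19). For Plbd1, Axl, Batf3 and Rtn1 the construct libraries lay above both mock libraries, which was a condition for naming them among the largest rises. Clec9a, which was not chosen by that condition, showed the same separation. The lysosomal list split, with 9 rises and 9 falls among 26 genes, beside 28.8% and 27.5% of all genes. Ctsh, the protease cathepsin H, rose most clearly, with 146 and 138 RPKM with hIRF8G388S, 143 and 151 with hIRF8379-389, and 23.8 and 25.6 with mock (log2 fold change 2.5 ± 0.10), while Ctsd, cathepsin D, had 5668 and 5682 RPKM with hIRF8G388S, 4627 and 5321 with hIRF8379-389, and 8388 and 8606 with mock (log2 fold change -0.68 ± 0.10).

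The falls were led by Fabp7, a fatty acid binding protein first known from brain. It had 9.804 and 5.43 RPKM with hIRF8G388S, 6.33 and 6.02 with hIRF8379-389, and 53.97 and 60.2 with mock (log2 fold change -2.91 ± 0.25, adjusted p = 6.92e-10). Id3, an inhibitor of basic helix-loop-helix factors, had 37.2 and 30.4 RPKM with hIRF8G388S, 29.7 and 31.6 with hIRF8379-389, and 198 and 168 with mock (log2 fold change -2.47 ± 0.16, adjusted p = 4.51e-12), and its relative Id2 fell by 1.05 on the log2 scale. Penk, the precursor of the enkephalins, had 31.95 and 28.1 RPKM with hIRF8G388S, 28.3 and 26.6 with hIRF8379-389, and 120.4 and 121 with mock (log2 fold change -2.04 ± 0.14, adjusted p = 7.59e-12). In each of these genes all 4 construct libraries lay below both mock libraries, which for the largest falls was a condition of being named. Pira1, a paired immunoglobulin-like receptor of a family of near-identical genes whose reads are uncertain, had 0.594 and 0.15 RPKM with hIRF8G388S, 0.488 and 0.983 with hIRF8379-389, and 17.1 and 2.59 with mock (log2 fold change -2.40 ± 0.40, adjusted p = 2.53e-05), and its mock libraries were far apart, with a log2 fold change of -1.24 (adjusted p = 0.00854) without mock replicate 1. Mgst3 (a microsomal glutathione transferase), Ltc4s (leukotriene C4 synthase), Phlda3 (an inhibitor of Akt) and Dkk2 (a modulator of Wnt signals) fell by 1.76, 1.81, 1.8 and 1.74 on the log2 scale, each with no overlap of libraries, as that condition requires. Cxcl14, a chemokine, had 5.298 and 4.44 RPKM with hIRF8G388S, 4.31 and 4.02 with hIRF8379-389, and 23.2 and 22.5 with mock (log2 fold change -2.12 ± 0.08, adjusted p = 2.48e-16).

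Most tested markers of granulocytes and most genes of microbial killing fell. Of 13 neutrophil and precursor markers, 10 fell and 1 rose, beside 27.5% and 28.8% of all genes, and 6 fell and 1 rose without mock replicate 1. The rise was Csf3r, the G-CSF receptor, named after its values were seen, with 27.2 and 30.3 RPKM with hIRF8G388S, 30.8 and 30.3 with hIRF8379-389, and 23.2 and 23.8 with mock. Mmp8, the collagenase of neutrophil granules, had 20.2 and 22.3 RPKM with hIRF8G388S, 22.03 and 20.5 with hIRF8379-389, and 81.01 and 84.5 with mock (log2 fold change -1.91 ± 0.08, adjusted p = 3.12e-16). S100a8, a calcium-binding protein abundant in neutrophils, had 161 and 154 RPKM with hIRF8G388S, 226 and 161 with hIRF8379-389, and 443 and 359 with mock (log2 fold change -1.20 ± 0.16, adjusted p = 7.76e-07), and Prtn3, a serine protease of promyelocytes, 8.14 and 9.12 RPKM with hIRF8G388S, 10.3 and 6.998 with hIRF8379-389, and 17.6 and 31.7 with mock (log2 fold change -1.37 ± 0.23, adjusted p = 2.21e-05). The neutrophil marker Ly6g did not pass 0.6 RPKM in any library. Saa3, an acute-phase serum amyloid made by macrophages, had 19.2 and 15.9 RPKM with hIRF8G388S, 15.7 and 14.03 with hIRF8379-389, and 54.8 and 69.5 with mock (log2 fold change -1.87 ± 0.13, adjusted p = 1.08e-11). Of 12 genes of the NADPH oxidase and antimicrobial list, none rose and 9 fell, beside 28.8% and 27.5% of all genes, with a median of -0.55. Ncf1, the p47 subunit of the oxidase, had 118 and 119 RPKM with hIRF8G388S, 107 and 109 with hIRF8379-389, and 196 and 177 with mock (log2 fold change -0.72 ± 0.06, adjusted p = 7.22e-10). Lyz2, the lysozyme that was the most abundant marker of the macrophage list, had 12619.6 and 12074 RPKM with hIRF8G388S, 9008 and 12629 with hIRF8379-389, and 19774 and 20326 with mock (log2 fold change -0.81 ± 0.11, adjusted p = 1.61e-06). Cybb, the catalytic subunit of the oxidase, stood at 204 and 221 RPKM with hIRF8G388S, 275 and 211 with hIRF8379-389, and 211 and 202 with mock (log2 fold change 0.13 ± 0.10, adjusted p = 0.28).

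The promoters of the leading genes were searched for the short elements that interferon regulatory factors and their partners are known to bind. Windows ran from 250 bases before to 50 after the start of a gene in the RefSeq table of GRCm38.p6, and 18 of the 24 leading genes have an entry. Searched on both strands were GAAANNGAA, the repeat of interferon-stimulated response elements, GGAANNGAA, the composite form with a GGAA core, and TTCNNNGAA, the palindrome bound by STAT proteins. GAAANNGAA was in 22.4% of 286 promoters of genes that rose by 1 or more, 7.75% of 142 promoters of genes that fell by 1 or more, 7.58% of the 10515 promoters of tested genes and 8.56% of all 32851. For GGAANNGAA the shares were 11.5%, 9.15%, 7.49% and 8.24%, and for TTCNNNGAA they were 9.09%, 4.93%, 6.76% and 8.30%. Among 41 promoters of the type I interferon list described next, 56.1% held GAAANNGAA. It was in 12.5% of 8 promoters of the class II list, which rose. Of 9 promoters of the NADPH oxidase and antimicrobial list, in which most genes fell, 44.4% held it. A match is a description of letters in the window and not a shown binding site. Of the leading genes, 5 held GAAANNGAA or GGAANNGAA, in 3 of 10 promoters of the rises and 3 of 10 promoters of the falls. Either element was in 14.2% of the promoters of tested genes and 15.8% of all promoters. H2-Aa has an entry but none of the 3 elements in it.

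The promoters of the 2 rises and 2 falls of largest size that held GAAANNGAA or GGAANNGAA are shown because they carry it on both sides of the comparison. Trim30d and Ifi44, of the interferon list, were added after their values were seen. Each is written 5′ to 3′ along the gene's own strand in GRCm38.p6, with GAAANNGAA or GGAANNGAA on either strand in capitals. Ly86 is at chr13:37345095-37345394, plus strand. Rtn1 is at chr12:72409005-72409304, minus strand. Cxcl14 is at chr13:56296502-56296801, minus strand. Saa3 is at chr7:46715627-46715926, minus strand. Trim30d is at chr7:104507800-104508099, minus strand. Ifi44 is at chr3:151749861-151750160, minus strand.
Ly86: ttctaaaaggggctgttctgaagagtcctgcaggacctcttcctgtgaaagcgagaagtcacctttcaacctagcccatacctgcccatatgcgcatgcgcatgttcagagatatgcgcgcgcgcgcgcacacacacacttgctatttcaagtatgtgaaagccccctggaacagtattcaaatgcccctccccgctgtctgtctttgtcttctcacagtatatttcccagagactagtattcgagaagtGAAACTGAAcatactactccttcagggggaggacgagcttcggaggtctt
Rtn1: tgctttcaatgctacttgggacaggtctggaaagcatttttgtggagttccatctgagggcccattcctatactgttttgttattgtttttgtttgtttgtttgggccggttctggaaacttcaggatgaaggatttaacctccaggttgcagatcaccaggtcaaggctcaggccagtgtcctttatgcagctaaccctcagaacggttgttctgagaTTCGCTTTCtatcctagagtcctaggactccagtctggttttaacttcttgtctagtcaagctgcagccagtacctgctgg
Cxcl14: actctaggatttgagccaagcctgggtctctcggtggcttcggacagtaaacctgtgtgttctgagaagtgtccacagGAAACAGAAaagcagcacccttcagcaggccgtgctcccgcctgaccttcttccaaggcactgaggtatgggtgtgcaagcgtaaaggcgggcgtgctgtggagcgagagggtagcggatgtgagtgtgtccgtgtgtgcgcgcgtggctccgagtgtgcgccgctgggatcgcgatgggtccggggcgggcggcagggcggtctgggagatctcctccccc
Saa3: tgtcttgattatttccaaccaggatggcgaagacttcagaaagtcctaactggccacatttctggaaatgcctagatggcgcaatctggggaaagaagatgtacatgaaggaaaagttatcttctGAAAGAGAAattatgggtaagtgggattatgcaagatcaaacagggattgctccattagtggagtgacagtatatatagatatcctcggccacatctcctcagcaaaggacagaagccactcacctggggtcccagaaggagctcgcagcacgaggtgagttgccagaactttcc
Trim30d: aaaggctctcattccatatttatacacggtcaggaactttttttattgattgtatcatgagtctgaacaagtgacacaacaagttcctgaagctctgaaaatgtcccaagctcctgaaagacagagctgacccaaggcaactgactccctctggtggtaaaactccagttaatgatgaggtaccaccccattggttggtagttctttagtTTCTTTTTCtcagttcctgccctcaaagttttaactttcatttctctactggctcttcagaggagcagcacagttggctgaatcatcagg
Ifi44: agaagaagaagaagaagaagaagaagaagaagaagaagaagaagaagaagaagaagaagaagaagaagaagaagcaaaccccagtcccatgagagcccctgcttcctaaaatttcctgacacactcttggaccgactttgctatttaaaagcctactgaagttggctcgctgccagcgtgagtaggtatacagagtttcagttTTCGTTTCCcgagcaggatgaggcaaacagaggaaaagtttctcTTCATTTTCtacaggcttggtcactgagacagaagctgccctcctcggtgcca

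In Ly86 the element GAAACTGAA begins at the start of the gene, and in Rtn1, whose other 2 promoters in the table are not shown, the reverse form TTCGCTTTC ends 23 bases upstream of it. In Cxcl14 and Saa3, which fell, GAAACAGAA and GAAAGAGAA lie 164 and 117 bases upstream. Trim30d holds the reverse form 32 bases upstream, and Ifi44 holds a GAAANNGAA across the start and a GGAANNGAA 39 bases upstream.

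Type I interferon-stimulated genes, which limit virus growth, rose across the list, and to unequal levels in the constructs. Of 45 members tested, 42 rose with the constructs together and none fell, beside 28.8% and 27.5% of all genes, with a median log2 fold change of 1.26. With hIRF8G388S alone 32 rose, beside 24.6% of all genes (median 0.69), and with hIRF8379-389 alone 45 rose, beside 26.2% (median 1.87). Relative to the mock mean, the list's median was 0.68 and 0.67 in the hIRF8G388S libraries, 2.32 and 1.46 in the hIRF8379-389 libraries and 0.21 and -0.21 in the mock libraries. So hIRF8379-389 replicate 1 was highest, replicate 2 lay between it and hIRF8G388S, and the mock pair lay lowest. In the fit to 6 libraries the rises called were 37 with the constructs together, 16 with hIRF8G388S and 42 with hIRF8379-389, beside 14.9%, 10.5% and 12.3% of all genes, with no falls, beside 15.3%, 10.4% and 12.9%, and leaving out hIRF8379-389 replicate 1 left 42 rises with a median of 1.08.

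Trim30d, an interferon-induced ligase of the tripartite motif family, had 12.2 and 12.1 RPKM with hIRF8G388S, 33.03 and 20.9 with hIRF8379-389, and 2.78 and 2.32 with mock (log2 fold change 2.42 ± 0.15, adjusted p = 2.3e-12). Irf7, the factor that amplifies the type I response, had 126 and 135 RPKM with hIRF8G388S, 666 and 253 with hIRF8379-389, and 53.9 and 34.2 with mock (log2 fold change 2.40 ± 0.20, adjusted p = 4.94e-10). Zbp1, a sensor of Z-form nucleic acid, had 19.9 and 22.5 RPKM with hIRF8G388S, 74.4 and 36.5 with hIRF8379-389, and 8.86 and 6.45 with mock (log2 fold change 2.0 ± 0.15, adjusted p = 6.1e-11). In all 3 genes each construct library lay above both mock libraries. Ifi44 had 4.34 and 3.496 RPKM with hIRF8G388S, 24.1 and 8.43 with hIRF8379-389, and 0.597 and 0.274 with mock (log2 fold change 2.61 ± 0.21, adjusted p = 2.9e-10), and the signal transducer Stat2 rose by 1.51 ± 0.15 on the log2 scale. Ifit1, which binds viral RNA, did not pass, at 12.6 and 11.5 RPKM with hIRF8G388S, 49.1 and 24.02 with hIRF8379-389, and 26.9 and 10.2 with mock (log2 fold change 0.28 ± 0.23, adjusted p = 0.29). Its hIRF8G388S libraries lay between the mock libraries, and its log2 fold change was 0.94 (adjusted p = 0.000592) without mock replicate 1, -0.38 (adjusted p = 0.116) without mock replicate 2 and 0.53 (adjusted p = 0.0326) without hIRF8379-389 replicate 2. Ifi27, which is induced by interferon-alpha in other settings, fell. It had 34.6 and 31.7 RPKM with hIRF8G388S, 12.7 and 24.1 with hIRF8379-389, and 86.04 and 78.5 with mock (log2 fold change -1.73 ± 0.15, adjusted p = 1.11e-09).

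Of 20 interferon-gamma-induced GTPases and chemokines, 17 rose and 1 fell, beside 28.8% and 27.5% of all genes, with a median of 0.97, and 11 rises were called in the fit to 6 libraries. Gbp3, a guanylate-binding protein that attacks vacuoles of pathogens, had 8.97 and 9.98 RPKM with hIRF8G388S, 20.4 and 13.3 with hIRF8379-389, and 4.65 and 2.95 with mock (log2 fold change 1.52 ± 0.12, adjusted p = 1.37e-10). Cxcl10, a chemokine for T cells, had 12.7 and 8.19 RPKM with hIRF8G388S, 20.7 and 28.5 with hIRF8379-389, and 6.33 and 4.403 with mock (log2 fold change 1.42 ± 0.13, adjusted p = 2.53e-09, and 0.0509 with the shallow library added). Of 20 genes of MHC class I presentation, 14 rose and 1 fell, beside 28.8% and 27.5% of all genes, with a median of 0.44. With hIRF8G388S alone 9 rose, beside 24.6% of all genes (median 0.22), and with hIRF8379-389 alone 15, beside 26.2% (median 0.62). In the fit to 6 libraries these rises were 2 and 14, beside 10.5% and 12.3% of all genes. The peptide transporter Tap1 led, at 41.6 and 40.8 RPKM with hIRF8G388S, 84.2 and 54.6 with hIRF8379-389, and 30.4 and 27.9 with mock (log2 fold change 0.84 ± 0.10, adjusted p = 1.83e-07), while the class I heavy chain H2-K1 had 1045 and 1032 RPKM with hIRF8G388S, 1719 and 1256 with hIRF8379-389, and 1362 and 1261 with mock (log2 fold change -0.09 ± 0.12, adjusted p = 0.564).

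**Figure D2:**
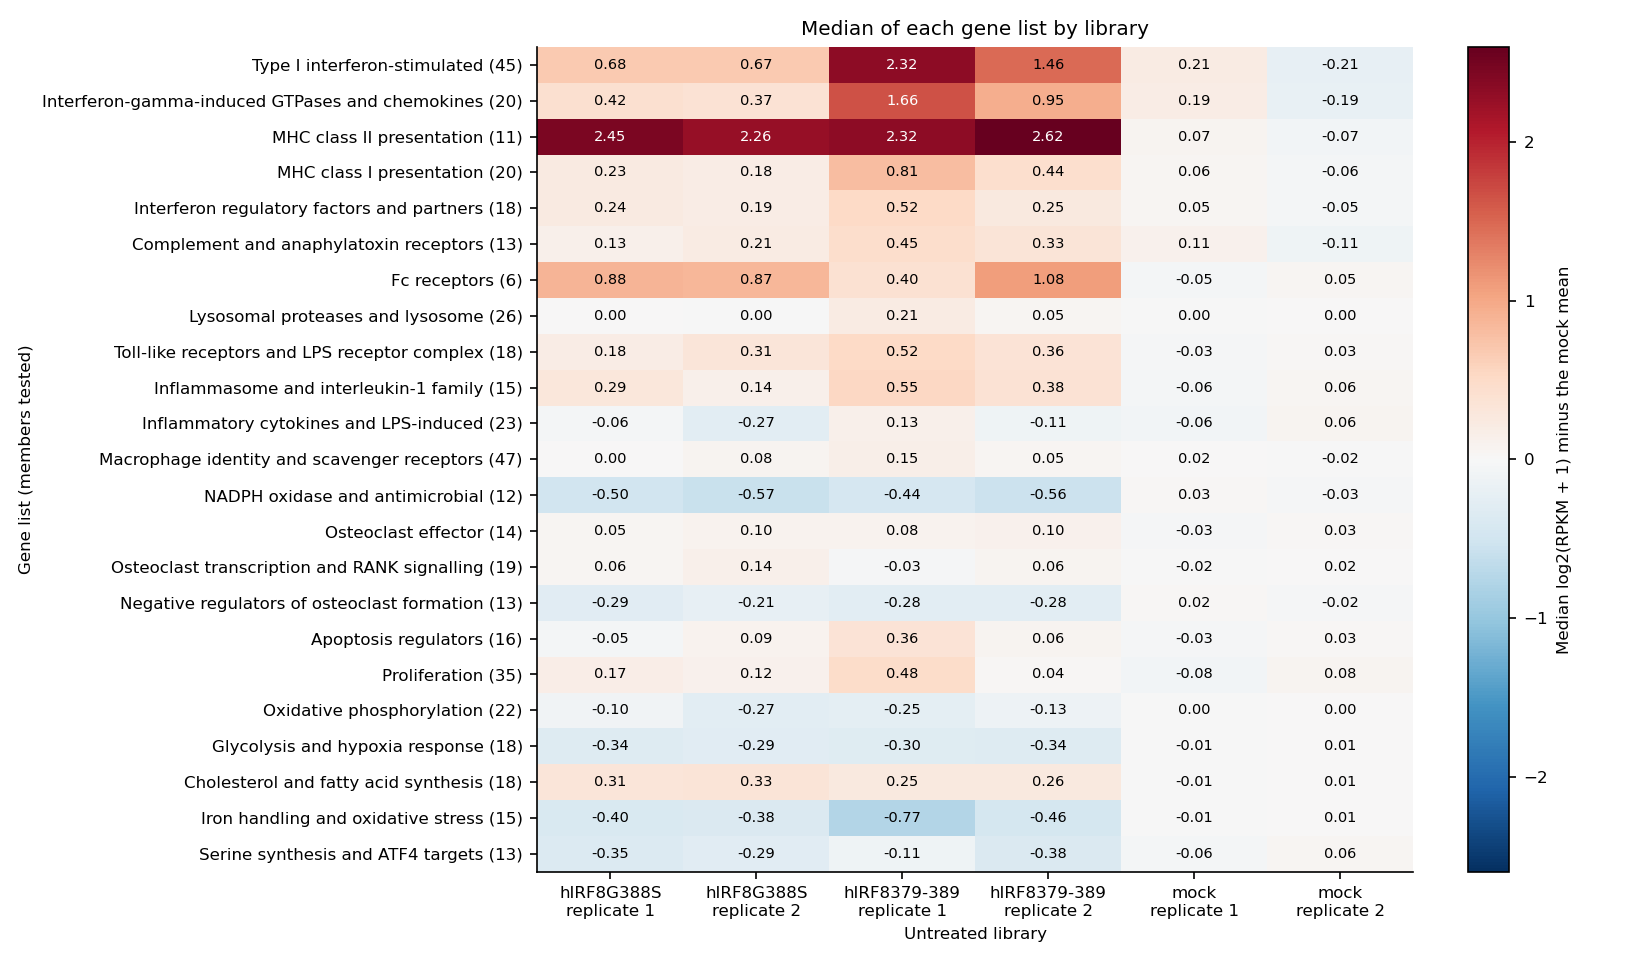
Median log2(RPKM + 1) minus the mean of mock for 23 gene lists (rows, with the members tested) in each of the 6 untreated libraries (columns), on a colour scale of log2 units from blue for lower to red for higher. MHC class II presentation stands at 2.26 to 2.62 in all 4 construct libraries, whereas the type I interferon list runs from 0.67 to 2.32 among them.

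The lists of metabolism moved in different directions, to be read beside rises of 28.8% and falls of 27.5% of all genes. Of 18 genes of glycolysis and the hypoxia response, 2 rose and 11 fell (median -0.35). Among them the liver-type phosphofructokinase Pfkl had 20.005 and 18.5 RPKM with hIRF8G388S, 15.96 and 15.1 with hIRF8379-389, and 30.1 and 32.2 with mock (log2 fold change -0.81 ± 0.07, adjusted p = 2.12e-09), and the glucose transporter Slc2a1 fell by 0.90 on the log2 scale. Of 15 genes of iron handling and oxidative stress, 2 rose and 11 fell (median -0.52). Gclm and Gclc, the subunits of the enzyme that starts glutathione synthesis, fell by 1.03 and 0.69, and Gsr, which recycles glutathione, by 0.89. Trf, transferrin, went the other way, with 574 and 560.3 RPKM with hIRF8G388S, 408 and 599 with hIRF8379-389, and 224 and 243 with mock (log2 fold change 1.18 ± 0.12, adjusted p = 1.46e-08). In cholesterol and fatty acid synthesis 12 of 18 rose and 1 fell (median 0.30). In oxidative phosphorylation 1 of 22 rose and 9 fell (median -0.17), against 2 and 5 with the gene length trend subtracted. Of 13 genes of serine synthesis and the ATF4 response 3 rose and 8 fell (median -0.31). With 6 libraries and that trend subtracted, rises and falls were 0 and 10 for glycolysis, 1 and 7 for iron handling and 4 and 1 for cholesterol synthesis. They were 1 and 4 for oxidative phosphorylation and 1 and 1 for serine synthesis, beside 1305 and 1269 of all 10569 genes.

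Genes of osteoclasts split. Of 14 osteoclast effector genes 5 rose and 4 fell, beside 28.8% and 27.5% of all genes. The fusion protein Ocstamp had 5.505 and 4.12 RPKM with hIRF8G388S, 2.85 and 4.08 with hIRF8379-389, and 0.285 and 0.141 with mock (log2 fold change 2.06 ± 0.15, adjusted p = 5.38e-11), and Acp5, the tartrate-resistant phosphatase, 12.2 and 9.17 RPKM with hIRF8G388S, 8.997 and 9.09 with hIRF8379-389, and 16.2 and 19.6 with mock (log2 fold change -0.80 ± 0.12, adjusted p = 3.79e-06). Of 19 genes of osteoclast transcription and RANK signalling 7 rose and 3 fell, with the repressor Prdm1 at 1.14 ± 0.09 and Junb, an AP-1 subunit, at -0.92 ± 0.13. Of 13 genes that restrain osteoclast formation 2 rose and 8 fell, Id3, Id2 and Irf8 among the falls. Among 35 proliferation genes 15 rose and 3 fell, beside 28.8% and 27.5% of all genes, against 3 and 2 in the fit to 6 libraries, beside 14.9% and 15.3%. The list's median relative to the mock mean was 0.17 and 0.12 with hIRF8G388S, 0.48 and 0.04 with hIRF8379-389 and -0.08 and 0.08 with mock. Its rise was thus largest in hIRF8379-389 replicate 1, while replicate 2 lay within the mock pair.

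The remaining lists split or rose in part. Among 47 genes of macrophage identity and scavenging 20 rose and 15 fell, beside 28.8% and 27.5% of all genes (median 0.10), with the lectin Clec4e, a receptor for mycobacterial lipids, at -1.11 ± 0.09. Of 23 inflammatory and LPS-induced genes 10 rose and 10 fell. Cxcl16, a membrane-bound chemokine, had 99.4 and 87.1 RPKM with hIRF8G388S, 90.8 and 105 with hIRF8379-389, and 28.4 and 20.7 with mock (log2 fold change 1.93 ± 0.12, adjusted p = 1.12e-12), and Nfkbia, the inhibitor of NF-kappaB, had 47.7 and 46.7 RPKM with hIRF8G388S, 43.1 and 43.5 with hIRF8379-389, and 93.3 and 92.1 with mock (log2 fold change -1.02 ± 0.06, adjusted p = 3.09e-13). Of 15 genes of the inflammasome and the interleukin-1 family 10 rose and 1 fell. Mefv, pyrin, had 5.96 and 6.11 RPKM with hIRF8G388S, 4.79 and 4.91 with hIRF8379-389, and 0.115 and 1.11 with mock (log2 fold change 2.06 ± 0.14, adjusted p = 2.18e-11). Of 18 interferon regulatory factors and partners 10 rose and 5 fell, and of 16 apoptosis regulators 6 rose and 5 fell, with the death receptor Fas at -0.84 ± 0.08.

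The constructs were then compared with each other, as the log2 difference hIRF8G388S minus hIRF8379-389. With the spread of 39 libraries 140 genes were higher and 380 lower with hIRF8G388S (1.32% and 3.6%), of which 2 and 68 differed by 1 or more on the log2 scale. In the fit to 6 libraries none was called in either direction (0% and 0%), the smallest adjusted p was 0.434, and 277 and 421 genes had an unadjusted p under 0.05, against 869 and 1013 with 39 libraries. Without hIRF8379-389 replicate 1 the 39-library spread called 18 and 96. Of the type I interferon list 45 of 45 were lower with hIRF8G388S (median -1.18), and 29 of 45 without that library (median -0.74). Of the interferon-gamma list 15 of 20 were lower and none higher, and 7 without that library, and of class I presentation 10 of 20 were lower, and 2 without that library. No call between the constructs was made without the spread of the stimulated groups, and of the 16 genes named next 14 did not pass with the shallow library added and 6 did not with libraries weighted by condition.

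Of 68 genes lower by 1 or more with hIRF8G388S, 31 are on the type I interferon list, and so are 5 of the 8 named as furthest below, Slfn1, Ifit3, Ifit2, Phf11d and Ifit3b. Slfn1, a Schlafen gene of growth restraint, had 3.56 and 4.01 RPKM with hIRF8G388S, 42.5 and 7.96 with hIRF8379-389, and 1.15 and 0.54 with mock (log2 difference -2.05 ± 0.34, adjusted p = 0.000416). Ifit3 and Ifit2 encode proteins of the same family as Ifit1. Ifit3 had 30.7 and 31.9 RPKM with hIRF8G388S, 192 and 80.4 with hIRF8379-389, and 20.6 and 10.98 with mock (log2 difference -1.95 ± 0.23, adjusted p = 2e-05), and Ifit2 had 30.97 and 34.7 RPKM with hIRF8G388S, 186 and 76.5 with hIRF8379-389, and 13.8 and 7.01 with mock (log2 difference -1.83 ± 0.26, adjusted p = 8.49e-05). In these genes both hIRF8379-389 libraries lay above both hIRF8G388S libraries, which was a condition for naming them, and hIRF8379-389 replicate 1 was the highest. Over all 10569 genes, called or not, the 2 pairs did not overlap for 2218 lower and 2373 higher with hIRF8G388S. Without that library the differences were -0.91 for Slfn1, -1.33 for Ifit3 and -1.2 for Ifit2, and all 3 passed (adjusted p 0.000398 to 0.00977). Without hIRF8379-389 replicate 2 that of Slfn1 was -3.19. Ms4a4c, a membrane protein of the MS4A family, Iigp1, an immunity-related GTPase, Phf11d and Ifit3b, a near copy of Ifit3 whose reads may be shared, were lower by 1.99, 1.86, 1.79 and 1.78, and by 0.91, 1.16, 1.03 and 1.2 without hIRF8379-389 replicate 1. For Ms4a4c the difference was -3.06 without hIRF8379-389 replicate 2. The insulin-like hormone Insl3 had 0.00601 and 0.00414 RPKM with hIRF8G388S, 1.79 and 3.43 with hIRF8379-389, and 3.63 and 1.898 with mock (log2 difference -1.81 ± 0.46, adjusted p = 0.0199), and it did not pass without any 1 of the 4 construct libraries (adjusted p 0.0673 to 0.109) or after scaling by median of ratios (adjusted p = 0.145). Ly86 was also lower with hIRF8G388S (log2 difference -1.14 ± 0.17, adjusted p = 0.000108).

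Of the 140 genes higher with hIRF8G388S, the 2 that differed by 1 or more were the microRNA genes Mir1901 and Mir7091, named after their values were seen. Mir1901 had 3.96 and 2.15 RPKM with hIRF8G388S, 8.76e-11 and 0.297 with hIRF8379-389, and 0 and 3.51 with mock (log2 difference 1.8 ± 0.34, adjusted p = 0.00156), and Mir7091 had 5.74 and 2.14 RPKM with hIRF8G388S, 0.449 and 0.671 with hIRF8379-389, and 0 and 2.19 with mock (log2 difference 1.56 ± 0.45, adjusted p = 0.0421). Without hIRF8379-389 replicate 1 neither passed (adjusted p 0.0679 and 0.331), and without hIRF8G388S replicate 1 Mir7091 differed by 1.01 (adjusted p = 0.335). Among protein-coding genes Ifi27, with the values given above, differed by 0.88 ± 0.17 on the log2 scale (adjusted p = 0.00227), and Itgax had 29.03 and 27.3 RPKM with hIRF8G388S and 15.2 and 19.8 with hIRF8379-389 (log2 difference 0.67 ± 0.13, adjusted p = 0.00173). Neither passed without hIRF8379-389 replicate 1 (0.44, adjusted p = 0.241, for Ifi27 and 0.48, adjusted p = 0.144, for Itgax). Vwf, the von Willebrand factor, had 3.59 and 4.43 RPKM with hIRF8G388S, 1.83 and 1.897 with hIRF8379-389, and 3.04 and 5.27 with mock (log2 difference 0.80 ± 0.13, adjusted p = 0.000304), and Mgll, a lipase of monoacylglycerols, had 3.08 and 3.55 RPKM with hIRF8G388S, 1.28 and 1.95 with hIRF8379-389, and 0.59 and 0.875 with mock (log2 difference 0.73 ± 0.10, adjusted p = 3.52e-05). Gprc5c (an orphan receptor), Gstm2 (a glutathione transferase) and Cyb5d1 were higher by 0.67, 0.71 and 0.66. Zfp652os, named as antisense to Zfp652 and not told apart from it unless the counting used strand, was higher by 0.86. Zfp652os, Gstm2 and Cyb5d1 did not pass with 0.1 added in place of 1 (adjusted p 0.128 to 0.327) or without hIRF8379-389 replicate 1 (differences of 0.67, 0.37 and 0.72, adjusted p 0.214 to 0.527). Nor did Zfp652os without either hIRF8G388S library (adjusted p 0.0731 and 0.115), or Gstm2 without hIRF8G388S replicate 2 (adjusted p = 0.174) and after scaling by median of ratios (adjusted p = 0.084). Cyb5d1 also did not pass without any 1 of the 4 construct libraries (adjusted p 0.124 to 0.214), after that scaling (0.135), with no filter (0.0653), with the replicate block (0.0591) and with the gene length trend subtracted (0.0646). For the class II genes the differences were -0.23 ± 0.17 for H2-Aa, -0.11 ± 0.17 for Cd74 and 0.06 ± 0.14 for Ciita, none past the threshold.

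**Figure D3:**
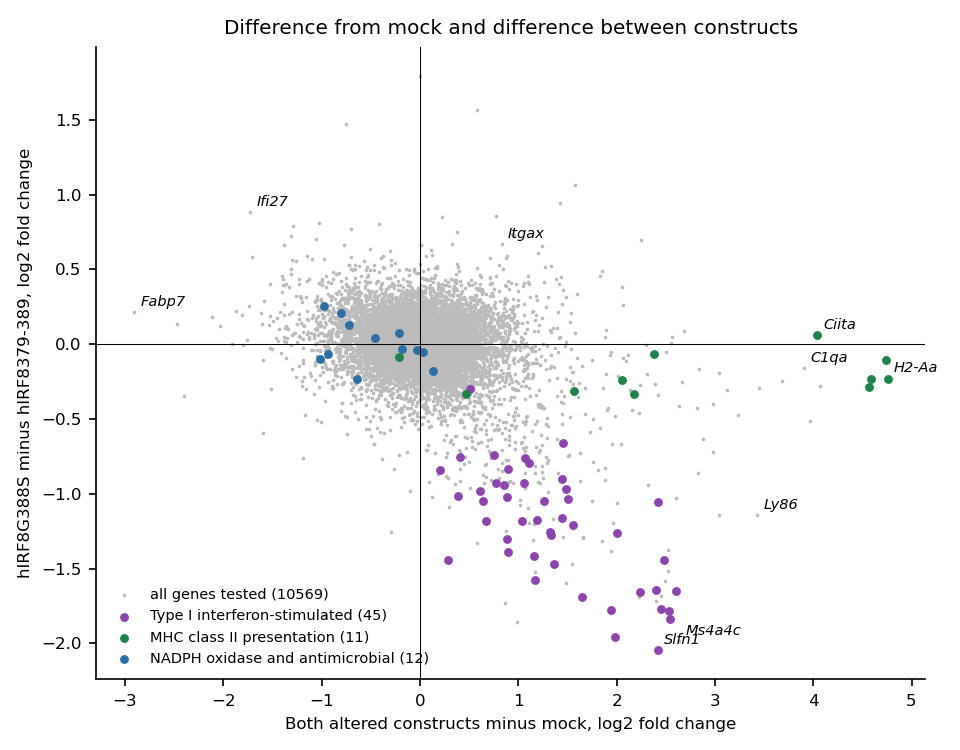
Each point is 1 of 10569 tested genes, with the log2 fold change of both constructs minus mock on the horizontal axis and hIRF8G388S minus hIRF8379-389 on the vertical axis, so both axes use the 4 construct libraries. The class II genes lie far right near 0 on the vertical axis, and the interferon-stimulated genes lie right and below it, with Slfn1 at -2.05.

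Whether the difference from mock depends on activation was tested against the stimulated macrophages, in which the log2 fold change of constructs over mock was higher with IFNg than untreated for 2922 genes and lower for 1624 (27.6% and 15.4%). Over IFNg and IFNg with LPS for 1, 4 and 8 h together the counts were 2992 and 2624 (28.3% and 24.8%). After the RPKM were scaled by median of ratios the IFNg counts were 2204 and 1836, and with the gene length trend subtracted 2140 and 2154. Of the libraries with IFNg, those of hIRF8379-389 carry another prefix in their column name, and the LPS libraries carry 2 prefixes, so that condition and prefix cannot be told apart except for hIRF8G388S and mock with IFNg, which share the prefix of the untreated libraries. At 4 h of LPS the mock libraries carry 1 of these prefixes and the hIRF8G388S and hIRF8379-389 libraries the other. There construct and prefix cannot be told apart, which limits the 4 h values and the change over all stimulations.

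For class II the gap narrowed. H2-Aa averaged 1592 RPKM with the constructs and 634 with mock under IFNg (log2 fold change 1.32 ± 0.15), so mock lay closer to the constructs than untreated, and the change of the difference was -3.44 ± 0.21 (adjusted p = 9.51e-12). With LPS the log2 fold changes were 1.67 at 1 h, 1.6 at 4 h and 1.28 at 8 h. For hIRF8G388S alone, within 1 prefix, the change with IFNg was -3.44 (adjusted p = 3.67e-10), a value computed after the data were seen. The log2 fold change of Ciita was 4.04 untreated, 1.46 with IFNg, and 1.40, -1.11 and -0.42 with LPS at 1, 4 and 8 h. For all 45 type I interferon genes the log2 fold change was lower with IFNg (median change -1.88) and over all stimulations (-1.50) than untreated. With IFNg 44 of the 45 had a log2 fold change below 0 (median -0.60, beside 0.1 over all genes), so that the sign turned and the constructs lay below mock, and Irf7 had a log2 fold change of -0.15 with IFNg (adjusted p = 0.582). Of the class II list the log2 fold change was lower for 9 of 11 and higher for 1 with IFNg, where the list's median was 0.84.

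The change with stimulation was not alike in all genes. Plbd1 had log2 fold changes of 4.07 untreated, 4.18 with IFNg, and 4.12, 4.09 and 4.37 with LPS at 1, 4 and 8 h. Gbp2b, a guanylate-binding protein, had 2.14 and 2.76 RPKM with hIRF8G388S, 12.1 and 4.57 with hIRF8379-389, and 0.598 and 0.403 with mock untreated (log2 fold change 1.86 ± 0.19). With IFNg it averaged 246 RPKM with the constructs and 4.07 with mock (log2 fold change 5.60 ± 0.19), a change of 3.75 ± 0.27 (adjusted p = 1.57e-10). Fcgrt did not pass untreated, and with IFNg it averaged 125 RPKM with the constructs and 19.05 with mock (log2 fold change 2.64 ± 0.13). Axl, among the largest rises untreated, had a smaller gap, with a log2 fold change of 0.48 with IFNg (adjusted p = 0.00535). Fabp7 fell untreated by 2.91, and with stimulation its difference changed by 2.32 ± 0.28 (adjusted p = 3.48e-07).

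**Figure D4:**
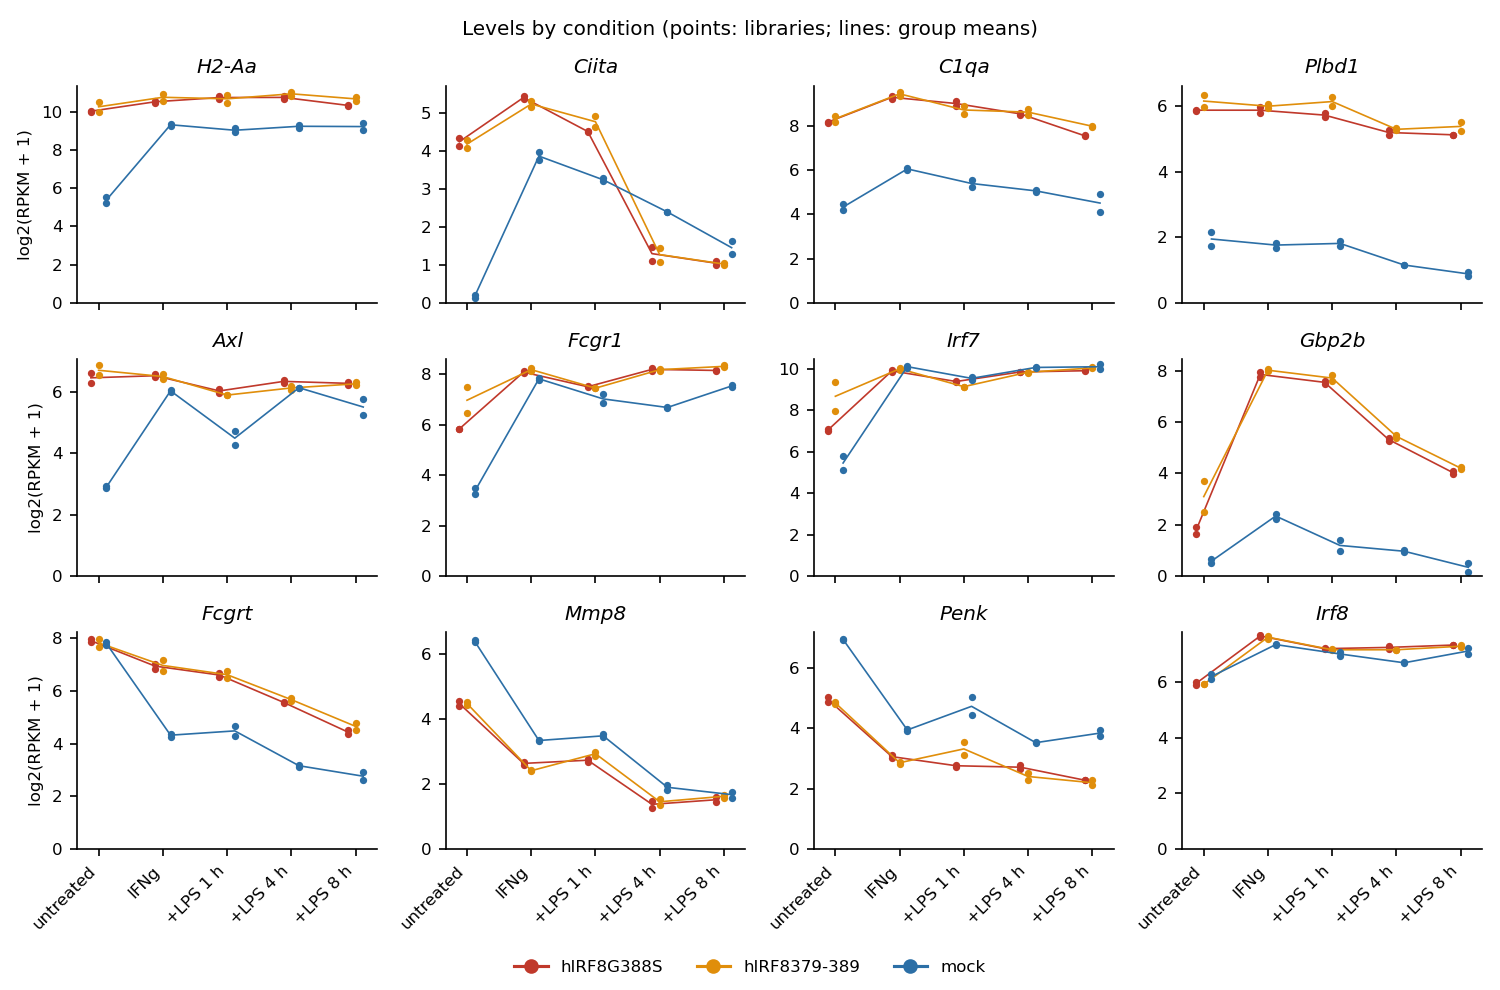
Level of 12 genes as log2(RPKM + 1) in untreated macrophages, with IFNg, and with IFNg and LPS for 1, 4 and 8 h, for hIRF8G388S, hIRF8379-389 and mock, with 1 point per library and lines through the group means. The gap between constructs and mock in H2-Aa is 4.76 untreated and 1.32 with IFNg, that of Plbd1 stays between 4.07 and 4.37, and that of Fcgrt is 0.06 untreated and 2.64 with IFNg.

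The same constructs were also set against mock at day 0 of the osteoclast experiment, with M-CSF and before RANKL, in 9 other libraries with 3 per group. There 5675 genes were higher and 2807 lower (52.8% and 26.1% of 10751 tested), with a median log2 fold change of 0.30 over all genes. Scaling by median of ratios moved that median to 0.02 and the counts to 4261 and 4041, so values at day 0 are read against that shift. Across 10191 genes tested in both, the log2 fold changes had a Pearson correlation of 0.559 and a Spearman correlation of 0.566. Genes are not independent replicates and no p is given. Of 297 genes that rose by 1 or more in the macrophages, 250 were higher and 16 lower at day 0, beside 52.8% and 26.1% of all genes. Of 134 genes that fell by 1 or more, 101 were lower and 9 higher.

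Plbd1 stood at 55.9 ± 3.99 RPKM with the constructs (SD, n = 6) and 2.33 ± 0.472 with mock (n = 3; log2 fold change 4.10 ± 0.09, adjusted p = 3.44e-22) at day 0, beside a log2 fold change of 4.07 in the untreated macrophages. C1qa had 21.8 ± 5.14 RPKM with the constructs (SD, n = 6) and 1.61 ± 0.97 with mock (n = 3; log2 fold change 3.18 ± 0.20, adjusted p = 1.47e-13), and H2-Aa had 59.4 ± 11.9 RPKM with the constructs (SD, n = 6) and 18.4 ± 6.76 with mock (n = 3; log2 fold change 1.68 ± 0.17, adjusted p = 2.03e-09), a smaller log2 difference than in the untreated macrophages, though the difference between experiments was not tested. Penk had 24.97 ± 2.997 RPKM with the constructs (SD, n = 6) and 159 ± 7.91 with mock (n = 3; log2 fold change -2.63 ± 0.10, adjusted p = 2.75e-17). Id3 went the opposite way, with 91.8 ± 19.2 RPKM with the constructs (SD, n = 6) and 44.1 ± 19.3 with mock (n = 3; log2 fold change 1.12 ± 0.23, adjusted p = 9.95e-05). Of the type I interferon list 25 of 45 were higher and 10 lower at day 0, which is close to the 52.8% and 26.1% of all genes, and Ifit3 had 68.3 ± 4.99 RPKM with the constructs (SD, n = 6) and 89.96 ± 14.97 with mock (n = 3; log2 fold change -0.38 ± 0.19, adjusted p = 0.0637). Of 12 neutrophil and precursor markers tested there, 12 were lower, beside 26.1% of all genes.

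**Figure D5:**
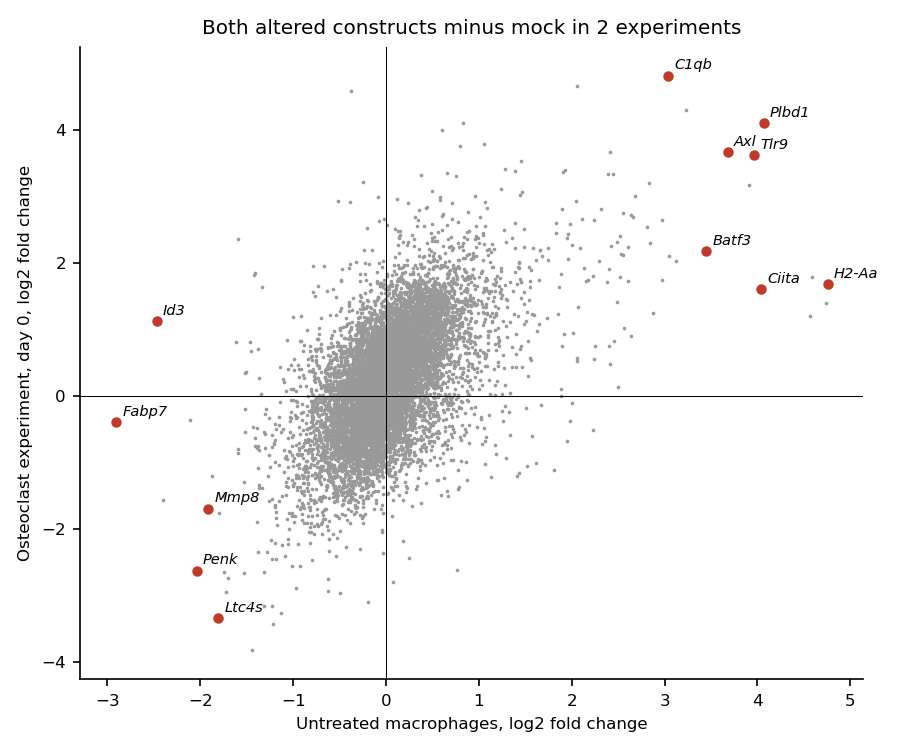
Each point is 1 of 10191 genes, with the log2 fold change of both constructs minus mock in untreated macrophages on the horizontal axis and the same contrast at day 0 of the osteoclast experiment on the vertical axis, and with 12 genes in red. Plbd1, C1qb, Axl and Tlr9 lie in the upper right, Penk, Ltc4s and Mmp8 in the lower left, and Id3 at -2.47 and 1.12.

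In the cells without constructs, 752 genes were lower and 1523 higher in Irf8 KO than in WT at day 0 by 1 or more on the log2 scale (7.04% and 14.3% of 10678). With no limit on size 3080 were higher and 1589 lower in KO, and 2287 and 2352 after scaling by median of ratios. Of the 732 lower in KO that were tested in the macrophages, 377 rose with the constructs and 159 fell (median 0.29). Of the 1382 higher in KO, 312 rose and 438 fell (median -0.06). Of all genes 28.8% rose and 27.5% fell. C1qa averaged 4.86 RPKM in KO cells, against 839 in WT cells, and Ly86 0.274 in KO cells, against 182 in WT cells. Penk averaged 38.4 RPKM in KO cells, against 0.98 in WT cells, and Fabp7 16.7 in KO cells, against 0.697 in WT cells. Mmp8 differed little, with 68.3 RPKM in KO cells, against 67.8 in WT cells, a log2 fold change of 0.01. The KO and WT libraries are another experiment, and their levels are set side by side with those of the macrophages only as directions.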

How the data were processed

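RNA-seq of mouse bone marrow cells was deposited by the authors as 1 table of RPKM per gene and library, not as counts. Per the submitters' processing notes reads were handled with TopHat2 2.1.0 and Partek on mm10, with bcl2fastq 2.17.1, CASAVA 1.8.4 and deepTools also listed. Depth is the number of alignments that the deposited column names give for each library, and no source used here says whether reads were counted by strand. Groups were taken from titles. With R 4.3.3 and limma 3.58.1 a linear model with 1 mean per group was fitted to log2(RPKM + 1) of 39 macrophage libraries (19 residual degrees of freedom), without the shallow hIRF8WT library, for 10569 of 24543 genes that reached 1 RPKM in at least 2 of the 6 untreated libraries. The two-sided moderated test used a mean-variance trend and Benjamini-Hochberg adjustment over all genes tested. The day 0 contrasts came from 33 osteoclast construct libraries and 17 KO and WT libraries in the same way. The script was tested on simulated data with the same spread in every library, so that test does not cover the unequal spread of these groups.

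Named are Irf8, the 12 largest rises and falls past 0.05 with no overlap of libraries (8 for each construct and for their difference, 4 for each interaction), and per list up to 5 members of smallest adjusted p and up to 2 that did not pass, without predicted, microRNA, small nucleolar RNA and pseudogene entries. The members and lists were chosen with earlier results of these data known. Gene coordinates are from GENCODE vM21 on GRCm38. Alternatives were a pseudocount of 0.1, other filters, median-of-ratios scaling, 40 or 6 libraries, a replicate block, leaving out each library and, chosen after seeing the data, subtracting a trend on gene length, weighting libraries, and hIRF8G388S alone for the IFNg contrast.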

Additional observations from a re-analysis of the deposited data

Results flagged for a closer look

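Genes are given here because the difference between constructs and mock changed with stimulation, by limma's test of that change itself. With IFNg the log2 fold change of constructs over mock was higher than untreated by 3.75 for Gbp2b, 2.57 for Fcgrt, 2.56 for Igfbp4 (a binding protein of insulin-like growth factors) and 2.46 for Smagp (a small transmembrane glycoprotein). It was lower, with changes of -3.44 for H2-Aa, -3.40 for Pnp2 (a purine nucleoside phosphorylase with the near copy Pnp), -3.37 for H2-Ab1 and -3.33 for Phf11a (of a family of near copies), and over these 8 genes the largest adjusted p was 9.67e-09. Over IFNg and the 3 LPS times together the changes were 3.21 for Gbp2b, 2.48 for Smagp, 2.43 for Ccl8 (a chemokine) and 2.32 for Fabp7, and -3.70 for Ciita, -3.43 for Pnp2, -3.38 for H2-Ab1 and -3.29 for H2-Aa, where the largest adjusted p was 3.48e-07. Untreated, the log2 fold changes of constructs over mock were 0.06 for Fcgrt, -0.51 for Igfbp4 and -0.75 for Smagp. With LPS at 4 h the construct libraries carry another column-name prefix than mock, so construct and prefix cannot be told apart there. Stimulated and untreated libraries carry different column-name prefixes in part, which cannot be told apart from the condition except for hIRF8G388S and mock with IFNg. In that pair the change was 4.32 for Gbp2b, 2.52 for Fcgrt and -3.35 for H2-Ab1.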

How the results depend on the processing

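The counts of genes changed between constructs and mock stayed within 1.5 times the values reported under the pseudocount, the filters, median-of-ratios scaling, the gene length trend and each left-out library (5016 to 5912 for both constructs). They moved under other samples or weights. With 40 libraries, the shallow one included, 3093 genes were called for hIRF8G388S, 3477 for hIRF8379-389, 2444 for the IFNg change and 3735 for the change over all stimulations. With 6 libraries the counts were 3189 for both constructs, 2209 for hIRF8G388S and 2658 for hIRF8379-389, and with the gene length trend subtracted as well 2574, 1523 and 2185. With libraries weighted by condition they were 3160, 2099 and 2602, and 3314 for the change over all stimulations, with a mean weight of 0.382 for untreated libraries. The count between the constructs was the least stable, at 796 without a filter, 30 with 40 libraries, 117 with weights, 0 with 6 libraries with or without the length trend, and 114 (without hIRF8379-389 replicate 1) to 932 (without hIRF8379-389 replicate 2) with 1 library left out. It was 271 without hIRF8G388S replicate 2 and 802 without either mock library. The cause of these moves was not tested. Same-numbered libraries did not deviate together (correlations of -0.053, -0.007 and 0.061), and with the replicate block 5891 genes were called for both constructs, 4987 for hIRF8G388S, 5349 for hIRF8379-389 and 502 between them. Of the genes named, none that passed changed sign. Genes that did not pass did so with the length trend subtracted (0.0339 for Ifi30 and 0.206 for Fcer1g, and with 6 libraries 0.0699, 0.243, 0.0299 for H2-K1 and 0.00224 for Adgre1). With 1 library left out in turn, log2 fold changes ran between -0.199 and 0.0277 for H2-K1, -0.00832 and 0.133 for Fcgrt, and -0.378 and 0.944 for Ifit1. The spread of the mock pair and 2 libraries a group limit the precision.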

Other observations

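The deeper untreated hIRF8WT library belongs to no comparison here, and its values are those of 1 library. It held 1016 RPKM of H2-Aa, 2692 of Cd74, 9.86 of Ciita and 336 of C1qa. Plbd1 stood at 42.7, Axl at 59.7, Ly86 at 4.499 and Batf3 at 11.4 RPKM. Of the falls, Fabp7 stood at 10.5, Id3 at 40.04, Penk at 38.95 and Mmp8 at 28.5 RPKM. Ifit3 stood at 38.9, Slfn1 at 1.75 and Irf8 at 64.1 RPKM. Pf4, a platelet chemokine that macrophages also make, differed between the replicates of hIRF8379-389, with 799.9 and 694 RPKM with hIRF8G388S, 235 and 638 with hIRF8379-389, 204 and 194 with mock and 895 in the hIRF8WT library, while haemoglobin Hba-a1 was near 0.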
